A study of Rattus norvegicus with 9 samples.

Results

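The genes described here are 9 genes of the oligodendrocyte precursor, the glial cell that divides in the adult brain and gives rise to myelinating oligodendrocytes: Gpr17, Pdgfra, Cspg4, Olig1, Olig2, Sox10, Nkx2-2, Bmp4 and Enpp6. They were taken from the arrays by gene name, which gave 9 of 34912 gene names and 12 of 45598 probes. Of these 12 probes 11 were bright enough to be tested, among 30215 tested probes in all. The list was drawn up with the difference between the groups already known, so that difference is described here with its standard error and carries no p.

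The arrays measured RNA of the amygdala, right and left parts together, from female rats of the spontaneously hypertensive strain SHR, 1 rat per array. All rats lost both ovaries at 4 weeks of age, had 1 week to recover and then carried a subcutaneous Alzet minipump for about 4 weeks. In the OV+E2 group (n = 5 rats) the pump held estradiol in PEG at 0.33 mg/ml and released 2 µg a day, and in the OV group (n = 4 rats) it held PEG alone. The rats were killed at 9 weeks of age, and no rat with ovaries was part of the comparison.

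Precursors arise under the transcription factors Olig1, Olig2 and Sox10, carry the growth factor receptor Pdgfra and the proteoglycan Cspg4 on their surface, and divide in response to platelet-derived growth factor. Gpr17, a G protein-coupled receptor related to the P2Y and cysteinyl leukotriene receptors, appears as a precursor commits to differentiate and is lost again before myelin is made. In mice and in cultured rodent cells it holds back maturation. Bmp4 and Enpp6 also mark committed and newly forming oligodendrocytes, and Nkx2-2 is a transcription factor that favours differentiation.

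Values are log2 intensities minus the 75th percentile of their array, so 0 is the brightness below which 75% of an array's probes lie. Differences are OV+E2 minus OV. The array of OV replicate 3 stood apart: its 75th percentile was at 129.7 intensity units, against 556.8 to 737.6 on the other 8 arrays, and 24225 of its probes were well above background, against 29052 to 31395. The authors' own value table differed from the scanner file on that array, with an SD of the log2 ratio of 1.00 over probes, against 0.0042 to 0.0307 on the other 8 arrays. Results are therefore given on 9 arrays and with this array left out, and for the listed genes also in the authors' values. The arrays lay on 2 slides, slide 1 with OV+E2 replicates 1 and 2 and OV replicates 1, 2 and 3, and slide 2 with OV+E2 replicates 3, 4 and 5 and OV replicate 5. Markers of neurons (10 of 10), astrocytes (10 of 10) and microglia (10 of 10) all passed the brightness filter, and no marker particular to the amygdala was examined.

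Gpr17 was read by 2 probes whose starts lie 1042 bases apart on the minus strand of rat chromosome 18 (build rn4), at chr18:24373229-24373288 (probe 1) and chr18:24374271-24374330 (probe 2). The oligonucleotide of probe 2 is printed because it gave the larger Gpr17 difference, and that of Enpp6 probe 2 because the probes of Enpp6 gave unlike values. Both can be read through without a stop codon in 1 frame. The other probe sequences are not printed. For none of the probes, the 2 printed ones included, was it known whether they lie in a coding or an untranslated exon.
Gpr17 probe 2, chr18:24374271-24374330, minus strand, rn4: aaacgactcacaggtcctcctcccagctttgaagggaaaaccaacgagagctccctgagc
Enpp6 probe 2, chr16:48416915-48416974, minus strand, rn4: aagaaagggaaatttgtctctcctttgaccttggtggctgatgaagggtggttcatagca

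Promoter sequences from RefSeq (build GRCr8) matched 7 of the 9 genes, all but Olig1 and Sox10. The 250 bases before the start of Gpr17 are shown because Gpr17 had the largest difference among the tested probes of the list and the treatment was an oestrogen. Capitals mark a match to GGTCA, the core of the oestrogen response element, read here on the other strand as TGACC.
Gpr17 promoter, chr18:23857382-23857631, minus strand, GRCr8: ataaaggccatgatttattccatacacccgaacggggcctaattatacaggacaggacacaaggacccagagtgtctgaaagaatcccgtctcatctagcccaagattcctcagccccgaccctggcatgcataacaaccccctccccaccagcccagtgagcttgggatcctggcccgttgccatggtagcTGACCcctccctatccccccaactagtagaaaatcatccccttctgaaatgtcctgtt
Searched on both strands, GGTCA was found in the promoter of 1 of these 7 genes, Gpr17, and in 35.4% of 33469 rat promoters of the same length. The full oestrogen response element, a palindrome that contains GGTCA on each strand, was found in 0 of 7 and in 0.0239% of all promoters. The E-box CANNTG, the motif bound by the Olig factors' class of proteins, was found in 3 of 7 (Pdgfra, Bmp4 and Enpp6) and in 65.5% of all. Of the Sox-type motifs ACAAT was found in 1 of 7 (Olig2; 30.0% of all) and ACAAAG in 1 of 7 (Enpp6; 16.3% of all). A match describes letters only, and no binding was measured.

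Across all tested probes limma called 0 of 30215 at a Benjamini-Hochberg adjusted p under 0.05 (0.0%), while 3136 (10.4%) had an unadjusted p under 0.05, 2167 of them lower (7.17%) and 969 higher (3.21%). After scaling to the array median in place of the 75th percentile the unadjusted calls were split into 1538 lower and 1396 higher. In the authors' values they were split into 3113 lower and 2542 higher, and with quantile normalization into 1925 lower and 1344 higher. Both probes of Gpr17 were lower in every OV+E2 rat than in every OV rat, a pattern that 1215 tested probes shared (4.02%). Pdgfra was higher in every OV+E2 rat than in every OV rat, as were 874 tested probes (2.89%). Since the genes were picked with this contrast known, nothing is read from these shares. The same 3 probes necessarily separated the groups when OV replicate 3 was left out, where 5.43% of tested probes lay wholly below and 5.02% wholly above. They did so in the authors' values too, beside 4.52% below and 4.1% above. Those values differ from the scaled scanner values mainly on OV replicate 3, so the other arrays add nothing separate there. None of the 11 probes was called in the fit on 9 arrays. The share called over all probes was 0.00331% (1 probe; unadjusted p under 0.05 in 14.1%) without OV replicate 3 and 0.23% (69 probes; unadjusted 18.9%) in the authors' values. The other 8 tested probes overlapped between the groups. Of the 11 probes 9 were lower and 2 higher in OV+E2, with a median difference of −0.08, against 15062 lower and 15153 higher with a median of 0.00 over all tested probes. This split depended on the array and the scaling: 6 were lower and 5 higher without OV replicate 3, and 5 lower and 6 higher with median scaling.

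The Gpr17 probes had the largest differences among the 11 tested probes of the list. Probe 1 read −1.69, −1.56, −1.64, −1.65 and −1.66 in OV+E2 replicates 1 to 5, against −1.26, −1.08, 0.61 and −1.25 in OV replicates 1, 2, 3 and 5. The OV+E2 rats lay within a span of 0.13, and the highest of them was 0.30 below the lowest OV rat. Probe 2 read −2.05, −1.97, −2.04, −2.22 and −2.45 in OV+E2, against −1.76, −1.57, −0.03 and −1.47 in OV. Here the gap between the groups was 0.21, and OV replicate 3 was again far above the other OV rats.

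The mean of probe 1 was −1.64 ± 0.05 in OV+E2 (SD, n = 5) and −0.75 ± 0.91 in OV (SD, n = 4), a difference of −0.89 (SE 0.36), or 1.86-fold lower in OV+E2. Without OV replicate 3 the OV mean was −1.20 ± 0.10 (n = 3) and the difference −0.44 (SE 0.07), or 1.36-fold lower. The single array thus moved the estimate by more than its remaining standard error. The direction could not turn without it, because the groups did not overlap. Probe 2 gave −0.94 (SE 0.33), 1.92-fold lower, and −0.55 (SE 0.12), 1.46-fold lower, without OV replicate 3. In the authors' values, where OV replicate 3 read 8.08 on probe 1 beside 8.10, 8.28 and 8.11 in the other OV rats, the differences were −0.42 (SE 0.06) and −0.59 (SE 0.11).

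The height of OV replicate 3 appeared after scaling to the array. Before scaling, probe 1 read 210, 211, 216, 213 and 233 intensity units in OV+E2, against 291, 263, 198 and 272 in OV replicates 1, 2, 3 and 5. OV replicate 3 was thus not bright for Gpr17, while other listed genes were several times dimmer there than on the other arrays: Pdgfra read 665 there and 3148 to 4052 on the other OV arrays. Which of the scanner file and the authors' column holds the RNA of that rat was not tested.

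Within slide 1 the difference of Gpr17 was −1.05 on probe 1 and −0.89 on probe 2. Within slide 2, where OV replicate 5 was the only OV rat, it was −0.40 and −0.76. The sign was the same on both slides and in all 24 settings tried, with probe 1 between −1.07 and −0.40. Since every OV+E2 rat lay below every OV rat, leaving out a rat or splitting by slide could not turn the sign. Changing the filter leaves a probe's difference as it is, so the 24 settings are not separate tests. With slide as a term in the fit the differences were −0.80 (SE 0.40) and −0.84 (SE 0.36).

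The plot of each gene in each rat shows these values beside those of the other 8 genes.

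**Figure D1:**
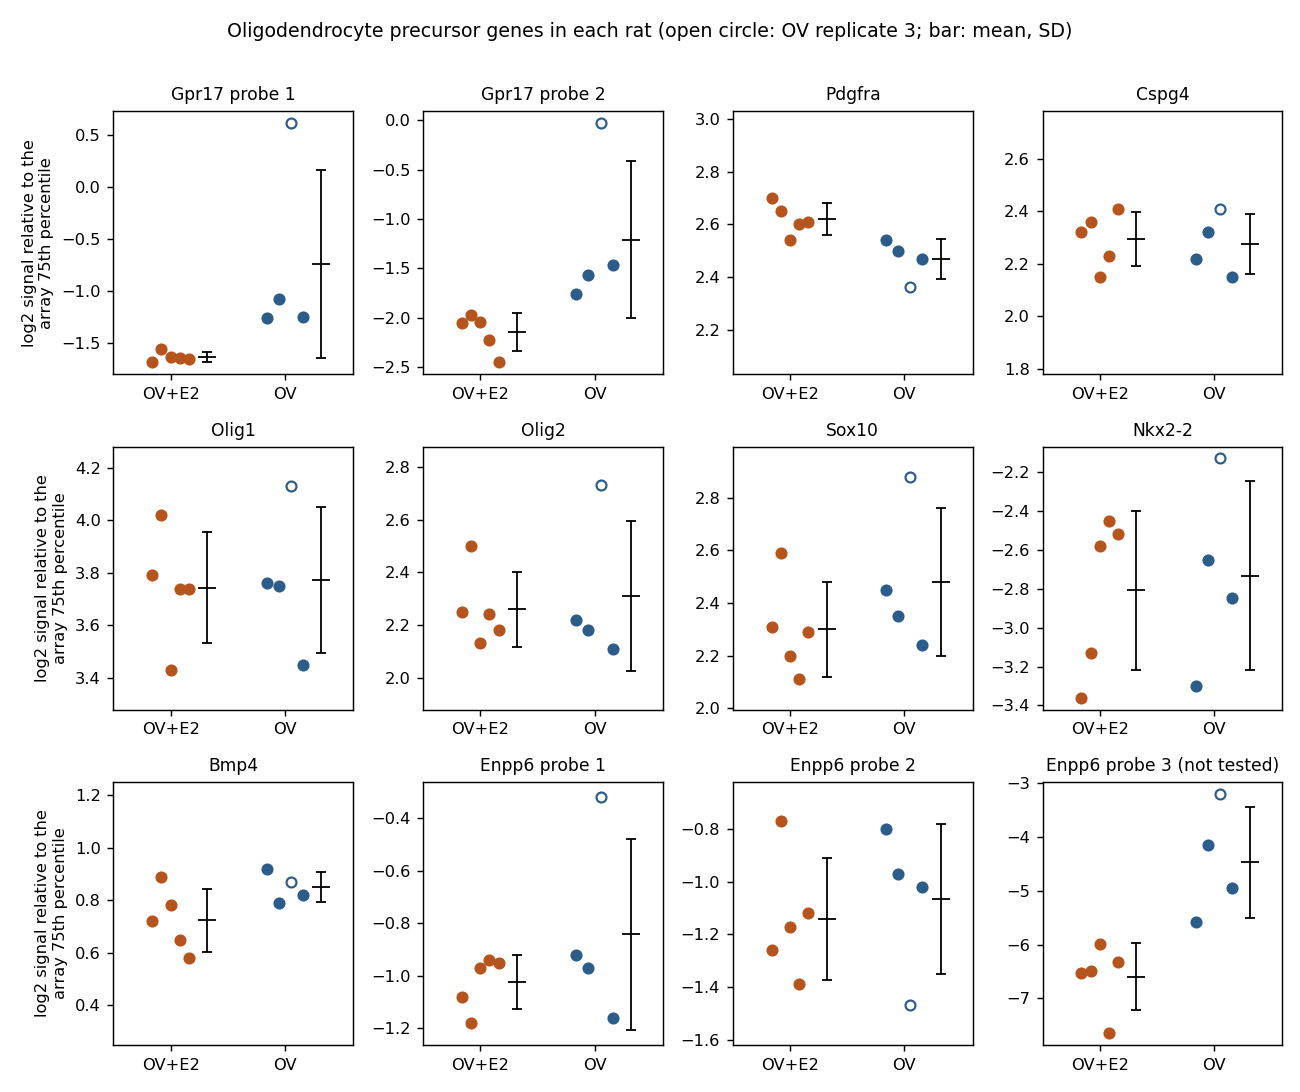
Log2 signal of each probe relative to the 75th percentile of its array (vertical axis), for the 5 OV+E2 rats and the 4 OV rats (horizontal axis), with 1 panel per probe and its own vertical range. Points are rats, the open circle is OV replicate 3, and the bars are the mean and SD. The Gpr17 points of OV+E2 all lie below those of OV, and OV replicate 3 lies apart at 0.61 and −0.03.

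The receptor and surface genes of the list, Pdgfra and Cspg4, did not share the Gpr17 pattern. Which cells of the tissue their RNA came from was not tested. Pdgfra, the receptor for PDGF-A, which drives precursor division and survival, was read at chr14:35369708-35369767. It gave 2.70, 2.65, 2.54, 2.60 and 2.61 in OV+E2, against 2.54, 2.50, 2.36 and 2.47 in OV. The groups touched without overlapping, since the lowest OV+E2 rat was at 2.541 and the highest OV rat at 2.538. The difference was 0.15 (SE 0.08), 0.12 (SE 0.06) with OV replicate 3 left out and 0.24 (SE 0.11) in the authors' values, and it was positive on both slides (0.21 and 0.11). Cspg4, the NG2 proteoglycan, was read at chr8:60645806-60645865. It gave 2.32, 2.36, 2.15, 2.23 and 2.41 in OV+E2, against 2.22, 2.32, 2.41 and 2.15 in OV, so the groups overlapped over nearly their whole range. Its difference was 0.02 (SE 0.10), and 0.06 (SE 0.08) without OV replicate 3.

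The transcription factors of the lineage overlapped between the groups, and in the scanner files OV replicate 3 was the highest array for each of the 4. In the authors' values it was the highest for Olig2 (12.02) but not for Olig1 (12.97), Sox10 (11.65) or Nkx2-2 (6.47). Olig1 was read at chr11:31246213-31246272, 37559 bases from the probe of its neighbour Olig2 at chr11:31208654-31208713. Olig1 gave 3.79, 4.02, 3.43, 3.74 and 3.74 in OV+E2, against 3.76, 3.75, 4.13 and 3.45 in OV. Olig2, which is needed to specify the lineage, gave 2.25, 2.50, 2.13, 2.24 and 2.18 in OV+E2, against 2.22, 2.18, 2.73 and 2.11 in OV. In both genes OV+E2 replicate 2 and OV replicate 3 were the high arrays in the scanner files, whichever group they belonged to. The difference was −0.03 (SE 0.16) for Olig1 and −0.05 (SE 0.14) for Olig2, and without OV replicate 3 it was 0.09 for each.

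Sox10, which activates myelin genes, was read at chr7:117138840-117138899. It gave 2.31, 2.59, 2.20, 2.11 and 2.29 in OV+E2, against 2.45, 2.35, 2.88 and 2.24 in OV, with a difference of −0.18 (SE 0.15) that was −0.05 (SE 0.11) without OV replicate 3. The direction stayed without that array, and the size was smaller. Nkx2-2, a homeodomain factor, was read at chr3:135839448-135839507. It gave −3.36, −3.13, −2.58, −2.45 and −2.52 in OV+E2, against −3.30, −2.65, −2.13 and −2.85 in OV. In OV+E2 the 2 rats on slide 1 were lower than the 3 on slide 2. The difference of Nkx2-2 was −0.08 (SE 0.27), and it was −0.55 within slide 1 and 0.33 within slide 2, so its sign turned with the slide and, at 0.12, without OV replicate 3.

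The tested probes of the other genes of committed cells differed by less than those of Gpr17. Bmp4, a secreted ligand that in rodent culture turns precursors away from the oligodendrocyte fate, was read at chr15:22283362-22283421. It gave 0.72, 0.89, 0.78, 0.65 and 0.58 in OV+E2, against 0.92, 0.79, 0.87 and 0.82 in OV. Of the OV+E2 rats 4 lay below every OV rat, and replicate 2 lay inside the OV range. The difference was −0.13 (SE 0.09), −0.12 (SE 0.08) with OV replicate 3 left out and −0.12 (SE 0.07) in the authors' values. It was negative in all 24 settings, which are not separate tests, down to −0.02 with scaling to the array median.

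Enpp6, a choline-specific phosphodiesterase, had 3 probes on the minus strand of chromosome 16. Probe 1 (chr16:48396304-48396363) gave −1.08, −1.18, −0.97, −0.94 and −0.95 in OV+E2, against −0.92, −0.97, −0.32 and −1.16 in OV. Probe 2 (chr16:48416915-48416974) gave −1.26, −0.77, −1.17, −1.39 and −1.12 in OV+E2, against −0.80, −0.97, −1.47 and −1.02 in OV. OV replicate 3 was the highest array for probe 1 and the lowest for probe 2, so the probes of this gene disagreed on that array in the scanner files. In the authors' values it was the highest array for both, at 8.45 and 8.68. The differences there were −0.03 (SE 0.08) for probe 1 and −0.27 (SE 0.13) for probe 2. In the scanner files the differences of probes 1 and 2 were −0.18 (SE 0.16) and −0.08 (SE 0.17). Without OV replicate 3 they were −0.00 (SE 0.09) and −0.21 (SE 0.14). Probe 1 gave −0.39 within slide 1 and 0.21 within slide 2. Probe 3 (chr16:48391974-48392033) was not well above background in any of the 5 OV+E2 rats and was well above it in 3 of 4 OV rats. Its measured means were −6.59 in OV+E2 and −4.47 in OV. For a fold, OV+E2 values were raised to the lowest signal well above background on their array, and OV values were used as measured. The fold was then 2.4 lower in OV+E2, and 1.79 without OV replicate 3. It is not a strict bound, since OV replicate 1, at −5.58, was itself not well above background. How many other probes share this pattern was not counted. Probe 3 was too dim to enter the fit, and its fold is not shared by the brighter probes of the gene.

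**Figure D2:**
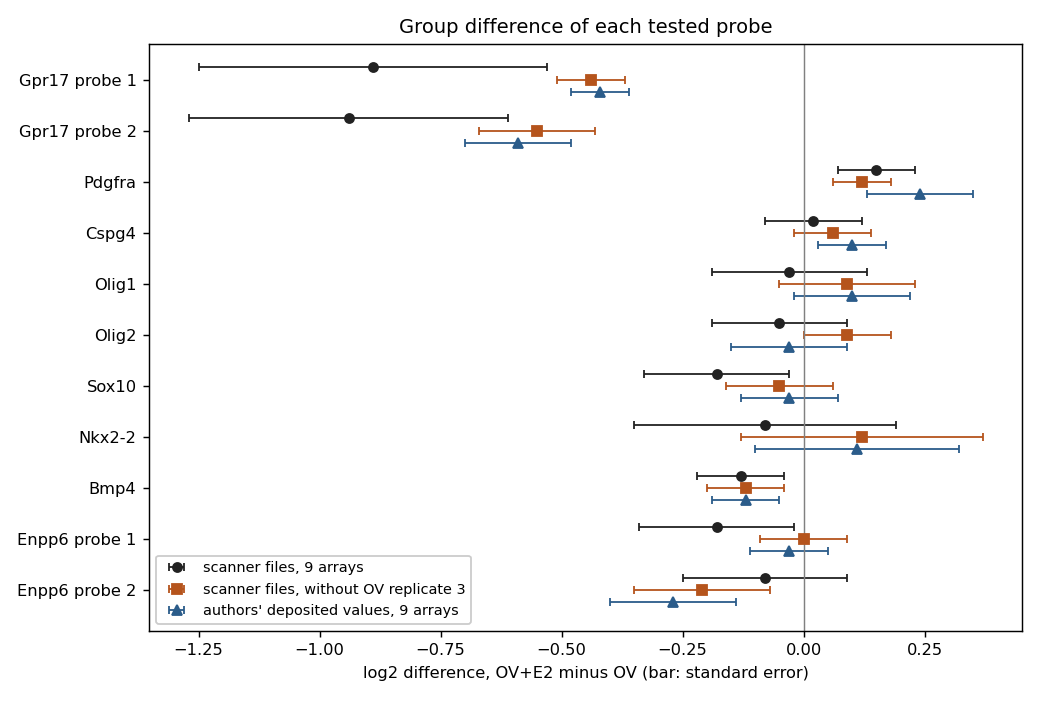
Difference of each tested probe, OV+E2 minus OV on the log2 scale (horizontal axis), for 11 probes (rows), with standard errors as bars. Circles are scanner values on 9 arrays, squares those without OV replicate 3, and triangles the authors' deposited values. The Gpr17 probes lie at −0.89 and −0.94 on 9 arrays and at −0.44 and −0.55 without OV replicate 3, and the squares of the other genes lie between −0.21 and 0.12.

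Gpr17 was also set against the other genes within each rat. The mean of the 8 other genes was 1.26 ± 0.06 in OV+E2 (SD, n = 5) and 1.32 ± 0.20 in OV (SD, n = 4), a difference of −0.06, or 0.04 without OV replicate 3. Gpr17 probe 1 minus this mean was −2.90, −2.90, −2.85, −2.92 and −2.96 in OV+E2, against −2.50, −2.36, −1.0 and −2.41 in OV. Outside OV replicate 3 the mean of the 8 other genes lay between 1.15 and 1.34. This measure therefore largely restates the Gpr17 values, and each OV+E2 rat was again lower than each OV rat. The difference of this contrast was −0.84, −0.48 with OV replicate 3 left out and −0.46 in the authors' values. For probe 2 it was −0.88, −0.59 and −0.63 under the same 3 conditions. In whole tissue, fewer cells of a type and less RNA per cell cannot be told apart.

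Residual spread among rats differed between these genes. The residual SD of Gpr17 probe 1 was 0.60, above that of 87.2% of tested probes, and 0.07 without OV replicate 3. That of probe 2 was 0.54 on 9 arrays and 0.18 without OV replicate 3. Pdgfra had a residual SD of 0.07 on 9 arrays, above that of 2.0% of probes.

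Deviations from the group means show which genes moved together from rat to rat, a measure that does not use the group difference. Over 9 rats the 2 Gpr17 probes correlated with Pearson's r of 0.956 (exact permutation within groups, two-sided, p = 0.0639) and Spearman's rho of 0.883 (exact p = 0.0257). Without OV replicate 3 these were 0.307 (exact p = 0.461) and 0.286 (exact p = 0.525) over 8 rats, so the strong pooled value rested on that array. Of the other 8 genes, each compared by its brightest probe with Gpr17 probe 1, none reached an adjusted p under 0.05 by Pearson's r or Spearman's rho over the 8 pairs (2880 permutations each). Olig2 gave r = 0.873 (exact p = 0.0323, adjusted p = 0.12) and rho = 0.633 (exact p = 0.15, adjusted p = 0.273). Sox10 gave r = 0.785 (exact p = 0.0469, adjusted p = 0.12) and rho = 0.567 (exact p = 0.17, adjusted p = 0.273). Enpp6 had r = 0.902 (exact p = 0.153, adjusted p = 0.175) with rho = 0.533 (exact p = 0.219, adjusted p = 0.292). These 3 values were the highest of the 8, and all were lower when OV replicate 3 was left out, at 0.425 for Olig2, 0.334 for Sox10 and −0.0917 for Enpp6. With the slide means removed as well, r was 0.925 for Olig2, 0.857 for Sox10 and 0.966 for Enpp6, and slide 2 gives no separate value for OV, which has 1 rat there.

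Among the remaining genes Olig1 gave r = 0.671 (exact p = 0.0465) and rho = 0.617 (exact p = 0.16). Nkx2-2 gave r = 0.616 (exact p = 0.0774) and rho = 0.617 (exact p = 0.101), and Cspg4 gave r = 0.57 (exact p = 0.0701) and rho = 0.383 (exact p = 0.33). Pdgfra was the only gene with a negative value, r = −0.706 (exact p = 0.0903) and rho = −0.6 (exact p = 0.0795). Bmp4 lay near 0, with r = 0.127 (exact p = 0.732) and rho = 0.2 (exact p = 0.561). For the first 4 of these genes the adjusted p of r was 0.12, and for Bmp4 it was 0.732; for rho the adjusted p was 0.273 for Olig1, Nkx2-2 and Pdgfra, 0.377 for Cspg4 and 0.561 for Bmp4. When the 2 arrays farthest from the median of Gpr17 (OV replicates 2 and 3) were left out, r was 0.692 for Olig2, 0.58 for Sox10, 0.35 for Olig1, 0.71 for Bmp4, 0.00564 for Cspg4, −0.0321 for Nkx2-2, −0.161 for Pdgfra and −0.464 for Enpp6. The deviations of Olig2, Enpp6 and Pdgfra are plotted against those of Gpr17.

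**Figure D3:**
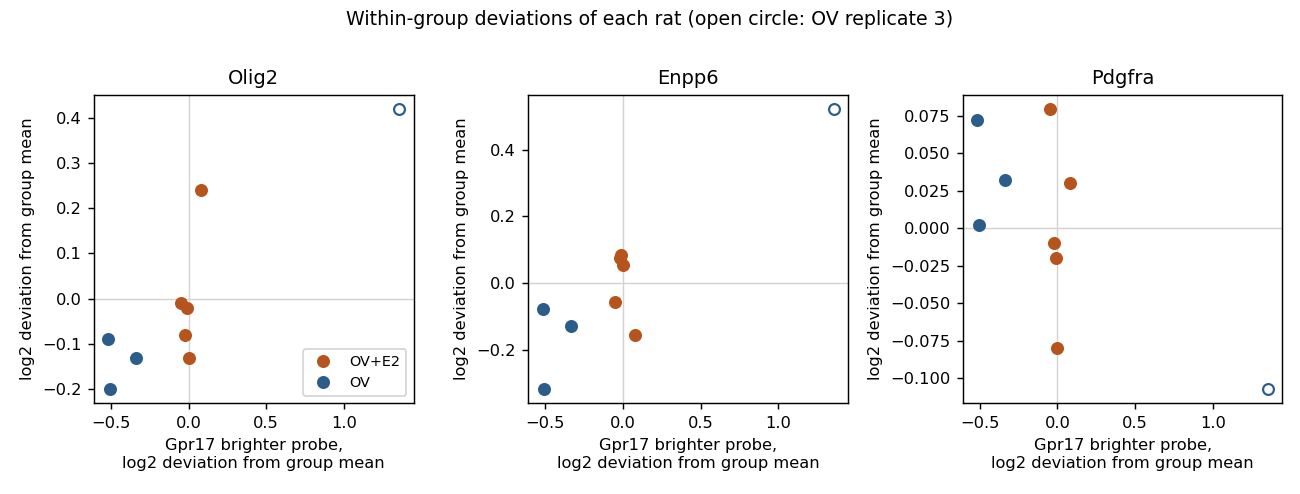
Deviation of Olig2, Enpp6 and Pdgfra from their group means (vertical axes, log2) against that of Gpr17 probe 1 (horizontal axis, log2), with 1 point per rat and the open circle for OV replicate 3. In each panel the open circle lies far to the right of the other 8 rats, high for Olig2 and Enpp6 and low for Pdgfra.

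Of 12779 named genes well above background on all arrays, the 5 whose deviations were most like those of Gpr17 probe 1, by the mean of r over 9 arrays and over 8, were C2cd4b (0.992 and 0.956), Tbc1d4 (0.99 and 0.95), Coro2a (0.983 and 0.951), Polm (0.985 and 0.944) and Pecam1 (0.986 and 0.941). Tbc1d4 encodes a Rab GTPase-activating protein of glucose transporter traffic, Coro2a a coronin, Polm a DNA polymerase of end joining and Pecam1 an adhesion molecule of endothelial cells. In the same ranking Olig2 stood at 1677, Sox10 at 2618, Olig1 at 2956, Cspg4 at 3440, Nkx2-2 at 3720, Enpp6 at 4178, Bmp4 at 6280 and Pdgfra at 9868. No other precursor gene of the list was among the 5 genes named. The 2 Gpr17 probes themselves correlated at 0.956 over 9 arrays and 0.307 over 8. Over 8 arrays even probes of the same gene were thus not close, and nothing about the lineage is read from the ranks. These are correlations over few rats that share OV replicate 3 in the first value, and they are a description.

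Other genes of the lineage, grouped by stage, gave 0 calls at an adjusted p under 0.05 in limma. Of 14 measured precursor genes outside the list 8 were lower and 6 higher in OV+E2, with a median of −0.03 (−0.08 without OV replicate 3, 0.08 with median scaling and 0.02 with quantile normalization), and 2 had an unadjusted p under 0.05, both lower (7.17% of all tested probes were lower at that p). The mean level of these 14 genes was −0.37 to −0.32 in OV+E2 and −0.28 to −0.04 in OV, without overlap under the reported scaling. The highest OV rat was at −0.17 without OV replicate 3. Cacng4, an AMPA receptor auxiliary subunit, was at −0.62 (SE 0.26, limma adjusted p = 0.466) and at −0.39 without OV replicate 3. The cadherin gene Pcdh15 was at −1.13 (SE 0.81, limma adjusted p = 0.532), of which −0.13 was left without OV replicate 3. The matrix gene Tnr was at −0.19 and then −0.08. In this stage the genes lay on both sides of 0, with Vcan at 0.13 and Ptprz1 at 0.06.

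Of 14 genes of committed and newly formed oligodendrocytes 11 were lower and 3 higher, with a median of −0.10 (−0.14 without OV replicate 3, 0.01 with median scaling) that was 0.09 within slide 1 and −0.20 within slide 2. At an unadjusted p under 0.05, 1 was lower (7.17% of all tested probes were). The membrane protein gene Prom1 was at −0.22 (SE 0.10, limma adjusted p = 0.472) and read 2.09, 2.25, 1.96, 1.94 and 1.92 in OV+E2, against 2.22, 2.25, 2.24 and 2.31 in OV. Its OV+E2 values reached into the OV range only in replicate 2. The homeodomain factor Nkx6-2 was at −0.37, the deacetylase Sirt2 at −0.30 and the zinc finger factor Zfp488 at −0.24, and without OV replicate 3 they were at −0.21, −0.15 and −0.17. Tcf7l2, a Wnt effector of newly forming oligodendrocytes, was at 0.15, and 0.30 without that array. Lims2 overlaps Gpr17 on chromosome 18 in the RefSeq annotation (GRCr8, 23828164 to 23866363 for Lims2 and 23850460 to 23857381 for Gpr17). Its probe gave −0.06, and 0.07 without OV replicate 3, so the neighbour did not show the Gpr17 difference.

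Of 15 myelin and mature oligodendrocyte genes 12 were lower and 3 higher, with a median of −0.21 (−0.18 without OV replicate 3; −0.07 within slide 1 and −0.28 within slide 2). The mean level of the list ran between 3.09 and 3.64 in OV+E2 and between 3.40 and 3.70 in OV, so the groups overlapped. At an unadjusted p under 0.05, 2 genes were lower, as were 7.17% of all tested probes. Myelin basic protein, Mbp, read 8.58, 8.68, 8.50, 8.46 and 8.32 in OV+E2, against 8.64, 9.02, 10.26 and 8.71 in OV, a difference of −0.65 (SE 0.30, limma adjusted p = 0.498) and −0.28 without OV replicate 3. The myelin genes Mobp at −0.58 (limma adjusted p = 0.466), Ppp1r14a at −0.45 (0.458) and Mog at −0.34 (0.492) were at −0.35, −0.33 and −0.31 without that array. The myelin and lymphocyte protein gene Mal was at −0.02, and 0.02 without that array.

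The signalling partners of the list showed little common movement. Of 19 genes of BMP signalling, the pathway of Bmp4, 8 were lower and 11 higher with a median of 0.03 (−0.02 with normexp), and 1 had an unadjusted p under 0.05, higher (3.21% of all tested probes). That gene was the secreted BMP antagonist Grem1, which read −0.89, −1.21, −0.88, −0.85 and −0.77 in OV+E2, against −1.24, −1.44, −2.27 and −1.46 in OV. Every OV+E2 rat was above every OV rat, and the difference was 0.68 (SE 0.20, limma adjusted p = 0.313) and 0.46 without OV replicate 3. The receptor Bmpr1b at −0.44, the ligand Bmp6 at 0.38 and the BMP target Id4 at 0.22 were within 0.06 of 0 without that array (−0.04, −0.06 and −0.01). Of the 3 measured genes of the PDGF family outside the list, the ligand Pdgfa, which binds Pdgfra, was at −0.07, the ligand Pdgfc at −0.30 and the receptor Pdgfrb at −0.17. Without OV replicate 3 they were at −0.04, 0.03 and 0.08. Of 8 purinergic and leukotriene receptor genes related to Gpr17, 5 were lower and 3 higher, with a median of −0.13 (−0.20 without OV replicate 3). Cysltr1 was at −0.35 (limma adjusted p = 0.513), P2ry13 at −0.27, and P2ry6 and P2ry12 at −0.25 each. Without OV replicate 3 Cysltr1 was at −0.22, P2ry13 at −0.19, P2ry6 at −0.14 and P2ry12 at −0.25. On 9 arrays none of the PDGF or receptor genes had an unadjusted p under 0.05. Without OV replicate 3, 1 receptor gene did, beside 14.1% of all tested probes.

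Markers of other cell types were read in the same fit, again with 0 adjusted calls. Of 10 microglia markers 6 were lower and 4 higher with a median of −0.30 (−0.20 without OV replicate 3), and their mean level was 1.24 to 1.39 in OV+E2 and 1.45 to 1.77 in OV, without overlap. Of 8 fibroblast and meninges markers 5 were lower with a median of −0.18 (−0.23 without that array), of 8 endothelial markers 6 with −0.22 (−0.14), of 8 mural cell markers 6 with −0.14 (0.01) and of 10 astrocyte markers 7 with −0.05 (−0.08, but 0.05 with median scaling and 0.01 with normexp). Of 10 neuron markers 9 were higher with a median of 0.28 (0.12), and their mean level was 3.35 to 3.40 in OV+E2 and 2.76 to 3.30 in OV, likewise without overlap. The mean level of the fibroblast and meninges markers was 0.96 to 1.11 in OV+E2 and 1.00 to 1.49 in OV, and without OV replicate 3, the lowest OV rat, the OV range was 1.13 to 1.49 and did not overlap. At an unadjusted p under 0.05, 4 microglia, 4 fibroblast, 2 endothelial and 1 mural marker were lower, 1 neuron marker was higher and no astrocyte marker passed. Over all tested probes 7.17% were lower and 3.21% higher at that p. Without OV replicate 3 the lower ones were 3 microglia, 5 fibroblast, 2 endothelial, 0 mural and 2 astrocyte markers, and 1 neuron marker was higher. Of all 30215 tested probes 2497 were lower and 1771 higher in that fit at the same p. Under the reported scaling, mean levels of neuron and microglia markers and of the 14 other precursor genes did not overlap between the groups. Those of fibroblast markers did not when OV replicate 3 was left out. The nearest levels were close, at −0.32 in OV+E2 and −0.28 in OV for the precursor genes. Microglia markers were at 1.39 and 1.45, and neuron markers at 3.35 and 3.30. With median scaling the median difference over all tested probes moved from 0.0 to 0.11. Mean levels under other scalings are not given, and how often gene lists separate the groups was not counted. The part of these lists in the Gpr17 difference was not tested. The mean of the 8 other listed genes overlapped between the groups. All of these lists can be compared in the plot by list.

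**Figure D4:**
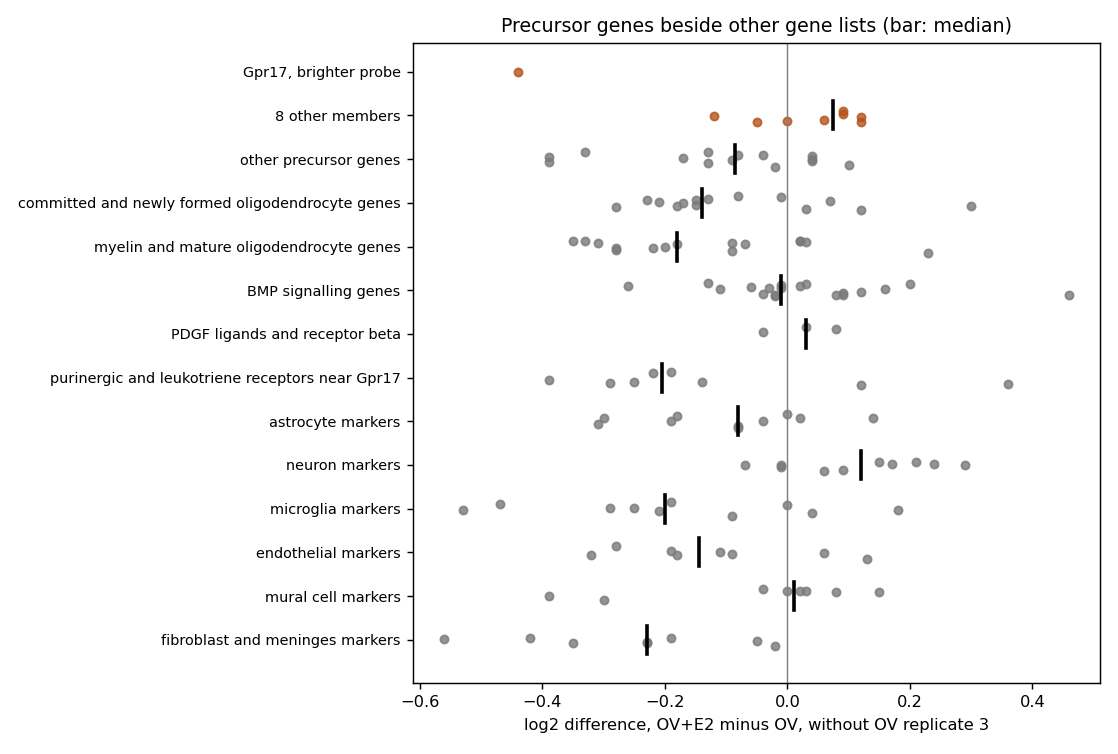
Differences, OV+E2 minus OV on the log2 scale without OV replicate 3 (horizontal axis), of Gpr17, the 8 other listed genes and 12 lists of lineage, pathway and cell type genes (rows). Points are genes by their brightest probe and black bars are medians. Gpr17 lies at −0.44, the other 8 listed genes between −0.12 and 0.12, and neuron markers have a median of 0.12 against −0.20 for microglia markers.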

How the data were processed

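Each array was an Agilent one-colour Cy3 rat array labelled from 200 ng of amygdala RNA of 1 rat, and groups were taken from the sample labels. The deposited scanner files give each spot's intensity after background subtraction, made with Feature Extraction 10.7.3.1 (protocol GE1_107_Sep09, rn4) per the file headers, while the submitters' processing notes name version 9.1. The authors' deposited table of processed intensities was converted to log2 and used as an alternative, with its scaling not given in the sources used here. On every array but OV replicate 3, its values for the listed genes were the scaled scanner values plus a near-constant shift. It is therefore not a separate processing of those arrays, and it differs mainly in the column of OV replicate 3. Of 62976 spots per array, 4259 control spots and 253 to 517 outlier spots were left out, and spots of a probe were averaged. The log2 intensity minus the array's 75th percentile was used. Probes that 4 or more of the 9 arrays read well above background were tested with limma 3.58.1 in R 4.3.3 (lmFit and eBayes, Benjamini-Hochberg). The brightest probe stood for a gene in lists, correlations and ranges.

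The listed genes, the gene lists and the tests were chosen with earlier results of these data known. Named list genes were the 4 (marker lists 2) of smallest p per list; other list genes printed were chosen after their values were seen, as were the within-array Gpr17 contrast and the settings without OV replicate 3 that combine choices. Probes were named through RefSeq by accession (21184), symbol (9060) or synonym (412), and 14942 were not matched. Of the genes written in the lists Lhfpl3, Matn4, Pdgfb, Pdgfd and Cysltr2 were not tested, and some list genes are not reported here. Replicate numbers were not used as pairs: deviations of same-numbered rats correlated between −0.076 and 0.17, those of other rats between −0.29 and 0.122. Alternatives were normexp with an offset of 50, quantile and median scaling, the authors' values, other filters, array weights, slide or replicate number as a block, and leaving out each rat. P values measure the spread between these rats, and the number of arrays limits the precision. The fit was tested on simulated data.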

Additional observations from a re-analysis of the deposited data

Results flagged for a closer look

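Each probe was examined in each group for an array that stood apart from the rest, by the gap to its nearest neighbour over the range of the group (Dixon's critical value, 0.829 for 4 arrays and 0.71 for 5). Of 24 such groups 2 passed, and chance alone passes about 1 in 20. Both were Gpr17 in OV replicate 3. Probe 1 was at 0.61 there, with the other OV rats between −1.26 and −1.08 (gap over range 0.904). Probe 2 was at −0.03, with the others between −1.76 and −1.47 (0.833). In the authors' values, whose column for this rat differs from the scanner file, OV replicate 3 read 8.08 on probe 1, beside 8.10, 8.28 and 8.11 in the other OV rats.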

How the results depend on the processing

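The difference of Gpr17 and of Bmp4 was negative, and that of Pdgfra positive, in all 24 settings. For Gpr17 and Pdgfra, whose groups did not overlap, leaving out a rat or splitting by slide could not turn the sign. Sox10 kept its sign in 23, Cspg4 in 21, Enpp6 in 19, Nkx2-2 and Olig2 in 14 and Olig1 in 11. Changing the filter left the difference of each gene's brightest probe as it was. The authors' values without OV replicate 3 nearly repeated the scanner values without it. These counts of settings are therefore not counts of separate tests. The sizes that moved by more than the SD between rats were Pdgfra at 0.23 (normexp), 0.26 (median scaling) and 0.24 (authors' values), Nkx2-2 at −0.55 (within slide 1), Bmp4 at −0.02 (median scaling) and Enpp6 at 0.21 (within slide 2). The median over all probes, 0.00 as reported, was 0.11 with median scaling, −0.11 with normexp and −0.13 with no filter on dim probes, so differences under those settings are relative to these shifts.

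The count at an adjusted p under 0.05, 0 as reported, was 69 in the authors' values, 9 with no filter on dim probes, 2501 with array weights, and 0 to 1 when each rat was left out. With OV replicate 3 left out as well it was 1 in the authors' values, 151 with array weights and 1 with slide as a block. The unadjusted count, 3136 as reported, was 5655 in the authors' values, 8774 with array weights, 7113 with array weights without OV replicate 3, and 4725 with slide as a block without it. Leaving out each rat gave 2022 (without OV+E2 replicate 5) to 5330 (without OV replicate 1). With the replicate number as a block, which the pairing check did not bear out, it was 1966 and the adjusted count 0. Gpr17 was then at −0.89. The cause of these changes was not tested.

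List medians that moved were those of the other precursor genes (−0.11 with normexp, 0.08 with median scaling, −0.11 within slide 2, −0.11 over the mean of all probes), the committed genes (0.09 within slide 1), BMP signalling (−0.02 with normexp, 0.13 with median scaling, −0.02 over the mean of probes) and PDGF genes (0.13 with array weights, with or without OV replicate 3). Those of astrocytes were 0.05 with median scaling and −0.15 with array weights, with or without that rat. Those of neurons were 0.06 with array weights, 0.07 with the same without OV replicate 3 and 0.10 over the mean of probes. Microglia gave −0.19 with median scaling, −0.18 in the authors' values, −0.17 with slide as a block without OV replicate 3 and −0.13 within slide 2, and fibroblasts gave −0.42 within slide 2. No correlation with Gpr17 passed the adjusted threshold in any of 15 settings.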
